A study of Mus musculus with 4 samples.

Results

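Elavl binding sites in long noncoding RNA genes were taken from 2 deposited HITS-CLIP peak lists, 1 from mouse cortex and 1 from N2A cells, a mouse neuroblastoma line. A peak was kept when it overlapped the span of a gene of type lncRNA in the RefSeq table of GRCm38.p6 by at least 1 nt and touched no coding gene span. The well-known lncRNA genes Malat1, Neat1, Miat, Meg3, Rian, Mirg and Snhg14 were left out by name. The rule kept 1398 of 97775 cortex peaks and 60 of 7335 N2A peaks, called lncRNA peaks from here on. The cortex list stands for 3 samples, whose 5′ linker carried 25 degenerate nt, and the N2A list for 1 sample, whose linker carried 7. Linker and group therefore cannot be told apart, and since each group has 1 list, variation between samples is unknown. Strain, sex, age and antibody are not stated by the labels, which name no genetic change or treatment for either group. N2A is a single cell line with 1 sample, which limits it as a model of neurons.

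HITS-CLIP joins proteins to nearby RNA by irradiation, pulls down the protein of interest and sequences the RNA fragments that come with it. The Elavl family comprises the widely made Elavl1 (HuR) and the mainly neuronal Elavl2, Elavl3 and Elavl4, RNA-binding proteins that recognise U-rich and AU-rich stretches and act on splicing, stability and translation of their targets. Long noncoding RNAs are spliced or unspliced transcripts without a long open reading frame. Some act in the nucleus, as Xist does on the X chromosome, and others mainly carry microRNAs or small nucleolar RNAs (snoRNAs) in their introns or exons.

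Of the lncRNA peaks searched, 3 lay wholly inside a RefSeq promoter window, so their bases can be shown. Such a window runs from 250 bases before to 50 after an annotated start. The search left out part of the lncRNA peaks. All 3 are cortex peaks on the minus strand, written 5′ to 3′ on the peak's own strand with both ends included, and capitals mark runs of 3 or more T (U in the RNA).
A230006K03Rik, chr7:61089799-61089850: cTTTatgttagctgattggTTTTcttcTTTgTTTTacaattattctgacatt
B230217O12Rik, chr19:57323496-57323546: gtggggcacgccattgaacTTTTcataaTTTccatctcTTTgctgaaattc
6530402F18Rik, chr2:29248228-29248279: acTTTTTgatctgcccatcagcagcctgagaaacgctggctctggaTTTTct

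The A230006K03Rik peak held 29 T in 52 bases (55.8%), the B230217O12Rik peak 19 in 51 (37.3%) and the 6530402F18Rik peak 17 in 52 (32.7%). Over the same stretch of all 32851 promoter windows, read on the strand of each window's gene, the share of T was 22.7%, 22.6% and 23.7%. The A230006K03Rik and 6530402F18Rik peaks lay on the strand of their window's gene and were richer in T than the windows at large. The B230217O12Rik peak lay opposite to its window's gene, Gm50270, so its share has no background on the same strand. TTTNTTT, a U-rich heptamer pattern picked after the sequences had been seen, occurred once in the A230006K03Rik peak and on neither strand of the other 2. On the gene's strand it occurred in 3.1% of the matched stretches of all windows, and on either strand in 6.18%. The A230006K03Rik peak had a deposited p of 2.79e-07 and lay 62 to 113 nt upstream of an annotated start inside that gene. With 3 peaks out of a total of 1458, not all of which were searched, these sequences are examples and not a survey of the binding sites.

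The second set of sequences shows the microRNAs next to which lncRNA peaks were found. In the cortex list, 13 microRNA genes inside lncRNA genes lay within 500 nt of a lncRNA peak, 11 of which had a mature sequence in RefSeq. The arm commonly regarded as the main product is printed for 6 of them, with the seed (bases 2 to 8) in capitals.
mmu-miR-29c-3p: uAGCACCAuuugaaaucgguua
mmu-miR-29b-3p: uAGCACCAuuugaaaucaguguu
mmu-miR-125b-5p: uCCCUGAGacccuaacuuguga
mmu-miR-9-5p: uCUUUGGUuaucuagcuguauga
mmu-miR-374b-5p: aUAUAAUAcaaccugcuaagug
mmu-miR-22-3p: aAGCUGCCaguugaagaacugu
MiR-29c and miR-29b share the seed AGCACCA, and the other 4 have seeds of their own. The peak nearest to miR-29c, chr1:195037584-195037634 on the plus strand in A330023F24Rik, covered bases 38 to 88 of the 88-base hairpin and so the whole mature miR-29c-3p, in capitals here.
Mir29c hairpin, covered part: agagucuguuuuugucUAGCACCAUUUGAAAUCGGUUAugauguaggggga
This stretch held 18 U in 51 bases, and the peak was weak, with a deposited p of 0.0533.

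LncRNA peaks made up 1.43% of the cortex list (Wilson 95% interval 1.36 to 1.51) and 0.818% of the N2A list (0.636 to 1.05), where intervals cover counting error only and peaks of 1 list are not replicates. The difference, N2A minus cortex, was -0.612 percentage points (-0.809 to -0.367). Among 9959 lncRNA genes with at least 50 nt outside coding spans, 400 held a cortex peak (4.02%) and 42 an N2A peak (0.422%). Most held few: 209 of the 400 had 1 cortex peak, 62 had 2 and 35 had 10 or more, while 33 of the 42 had 1 N2A peak. The 10 richest genes together held 366 of the 1398 cortex peaks (26.2%). Genes with cortex peaks had a median span of 23.7 kb, against 8.69 kb for the 9542 genes without peaks in either list. Because a peak needs enough RNA to be called, more cells of a type and more RNA per cell cannot be told apart in these lists.

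**Figure D1:**
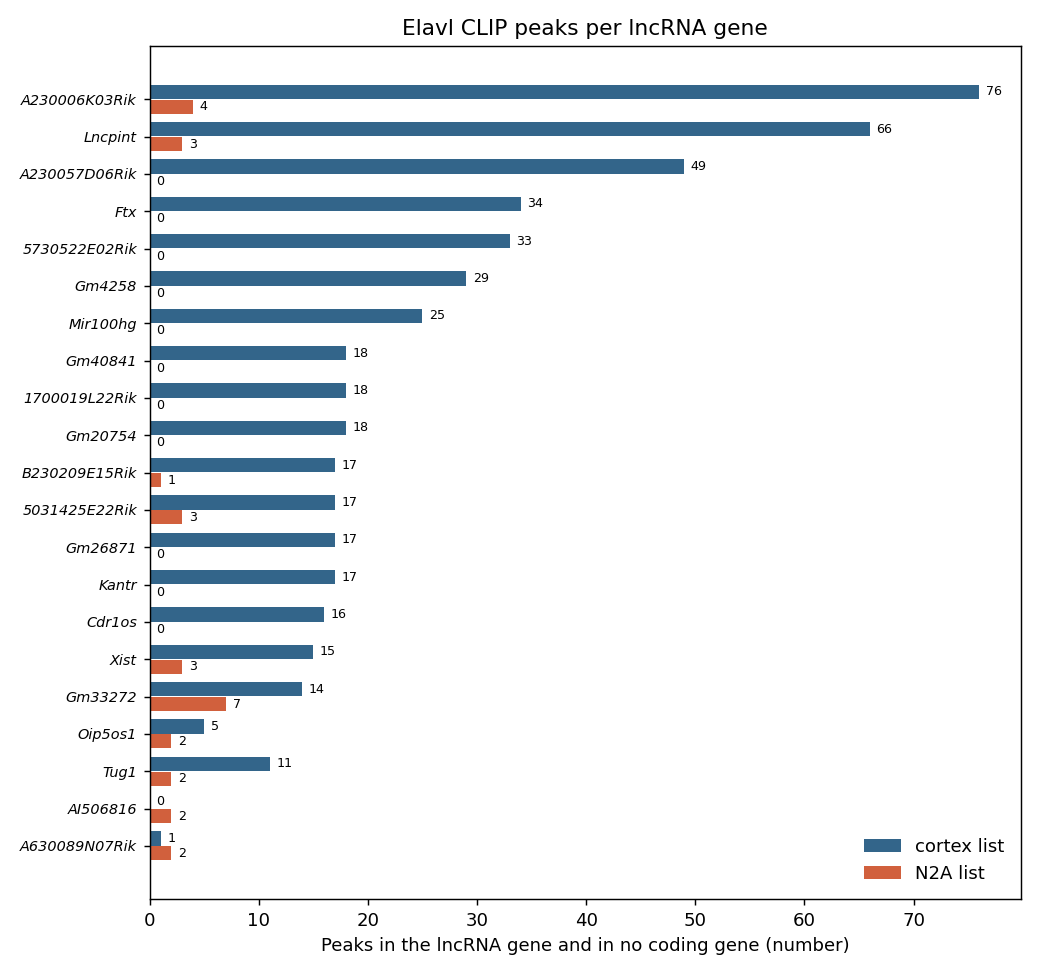
Number of lncRNA peaks (x axis) per gene (y axis) in the cortex list (blue) and the N2A list (orange), for the 16 genes with the most cortex peaks and every gene with 2 or more N2A peaks. A230006K03Rik and Lncpint lead the cortex list with 76 and 66 peaks, and Gm33272 leads the N2A list with 7.

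Strength was read from the deposited p of each peak, which can be compared only within a list. In cortex, 1047 of 1398 lncRNA peaks had a p under 0.05 (74.9%, 72.6 to 77.1), beside 77.2% of all cortex peaks. In N2A, 38 of 60 did (63.3%, 50.7 to 74.4), beside 79.7% of all N2A peaks, so the N2A interval lies below the share of its list. The cortex interval ends just under that of its list, and with the 7 genes put back the cortex share was 77.2% (75.1 to 79.1), the same as the list's. In cortex, 116 lncRNA peaks had a p under 1e-10 (8.30%, 6.96 to 9.86), against a background of 10.04%. In N2A the number was 5 (8.33%, 3.61 to 18.1), against 12.6%. The median p was 0.0139 for cortex lncRNA peaks and 0.00938 for cortex peaks in coding genes. In N2A these medians were 0.0312 and 0.00578, and the median lncRNA peak stood at 71.0% of the way down the ranked N2A list, against 54.2% in cortex.

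**Figure D2:**
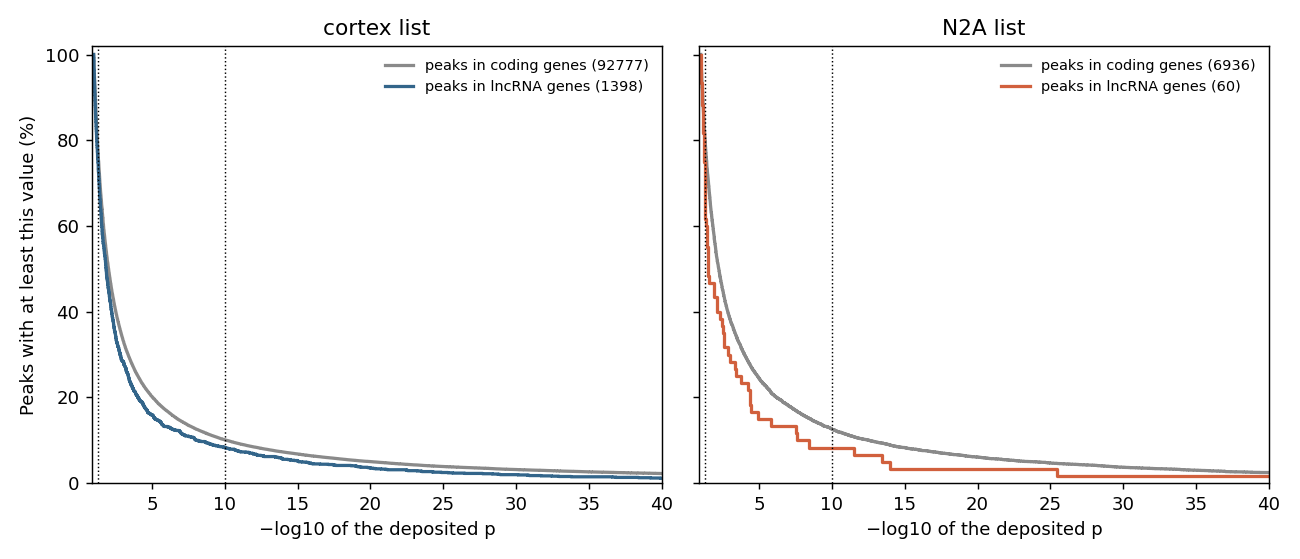
Share of peaks (y axis, %) whose −log10 deposited p is at least the value on the x axis, for peaks in lncRNA genes (coloured) and in coding genes (grey), in the cortex list (left) and the N2A list (right). Dotted lines mark the thresholds 0.05 and 1e-10. At 1e-10 the lncRNA curves stand at 8.30% and 8.33%, below the coding curves at 10.1% and 12.7%.

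The gene with the most cortex peaks was A230006K03Rik, a minus-strand lncRNA of 301.4 kb on chromosome 7, with 76 peaks, 61 of them under 0.05. Its strongest peak, chr7:61010536-61010587, had a p of 2.02e-28 and lay 0.296 kb from the gene's end. A230057D06Rik had 49 peaks (lowest p 1.16e-16) and B230209E15Rik had 17 (lowest p 1.99e-32), both on the same strand of the same region. Together these 3 genes held 142 lncRNA peaks over 0.915 Mb, all on the minus strand, which is 10.2% of the cortex total. Only 4 of the 142 had a p under 1e-10, so the stretch stood out by the number of its peaks rather than by their strength. Chromosome 7 as a whole held 15.6% of cortex lncRNA peaks and 4.96% of all cortex peaks. The nearest coding gene to the strongest A230057D06Rik peak was Ndn, 450 kb away.

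Lncpint, a lncRNA known as a p53-induced regulator in mouse cells, came second with 66 peaks over 124.9 kb on chromosome 6. Of these, 49 had a p under 0.05 and 9 a p under 1e-10, the most of any lncRNA gene in the list. Its strongest peak, chr6:31213790-31213841, had a p of 1.97e-47 and lay 4.66 kb from the start. The next in strength, with p of 1.28e-31 and 1.76e-29, lay 11.3 and 17.4 kb from it. Strong peaks also lay far downstream, with p of 4.45e-21 at 86.3 kb and 9.24e-22 at 105 kb. Peaks of Lncpint thus ran along most of the gene.

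Long, thinly covered genes made up part of the top of the count. 5730522E02Rik had 33 peaks over 593.7 kb, 1700019L22Rik 18 over 799.5 kb and Gm20754 18 over 528.5 kb, which is 5.56, 2.25 and 3.41 per 100 kb. None of these 3 had a peak under 1e-10. By contrast Gm40841 had 18 peaks over 25.4 kb (70.8 per 100 kb) and Gm4258 29 over 64.6 kb (44.9 per 100 kb). Gm4258 had 1 very strong peak, with a p of 8.29e-50, at 0.986 kb from the gene's end. 5031425E22Rik, Gm26871 and Kantr had 17 peaks each, with lowest p of 4.73e-26, 6.88e-22 and 2.04e-11. Across the 400 genes the number of peaks was weakly related to span, with a Spearman coefficient of 0.248, given as a description since genes are not replicates.

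Strongest of all lncRNA peaks was 1 in Snhg11, a lncRNA of the snoRNA host gene family known as enriched in neurons, with a deposited p of 0 at chr2:158382143-158382194. The list gives a p of 0 to 65 cortex peaks, which have no order among themselves. Snhg11 had 11 cortex peaks, all under 0.05, 7 of them under 1e-10. Going along the gene from its start, p was 2.97e-06 at 1.72 kb, 0.0133 at 2.92 kb, 0.018 at 4.03 kb, 4.27e-29 at 4.68 kb, 5.94e-11 at 5.74 kb and 4.96e-16 at 5.97 kb. From there it was 0 at 6.46 kb, 2.2e-93 at 8.32 kb, 1.22e-57 at 9.41 kb, 1.18e-41 at 9.93 kb and 0.0243 at 10.1 kb. Of the 7 under 1e-10, 6 thus lay beyond 5 kb in a gene of 10.8 kb, and 1 at 4.68 kb. No N2A peak lay in Snhg11.

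Oip5os1, the mouse Cyrano gene, whose RNA is known for a conserved site that directs decay of miR-7, held the second strongest peak, with a p of 1.78e-218 at chr2:119600741-119600792. That peak crosses the annotated end of the gene. The other 4 cortex peaks had p of 5.92e-25, 1.68e-06, 0.0282 and 0.0788. In N2A the gene had 2 peaks, with p of 1.2e-05 and 0.00478. The stronger, chr2:119600740-119600790, overlapped the strongest cortex peak, so the end of Oip5os1 led the gene in both lists.

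Other strong cortex peaks came from genes with few of them. 1500011B03Rik had 1 peak, with a p of 4.68e-140, at 0.105 kb from the end of the gene. 4930570G19Rik had 4, with p of 9.92e-86, 5.18e-08, 0.0288 and 0.0596, the first at 1.47 kb from the start. Sox2ot, the long transcript that runs past the neural stem cell factor gene Sox2, had 3, with p of 1.26e-59, 0.00355 and 0.04. A930015D03Rik, near the histocompatibility gene H2-T24, had 10 with a lowest p of 2.94e-58. Gm36876 had 1, with a p of 3.01e-72, on the strand opposite to its annotated one. In each of 4930570G19Rik and Sox2ot a single peak was far stronger than the others.

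Cdr1os and its neighbour C030023E24Rik on the X chromosome were both dense with cortex peaks. Cdr1os, transcribed opposite to Cdr1, had 16 plus-strand peaks, 11 under 0.05, with p of 4.13e-65 at 17.1 kb, 1.67e-31 at 0.76 kb and 1.03e-15 at 2.7 kb from its start as the 3 lowest. C030023E24Rik, of 2.87 kb, had 7 plus-strand peaks. From its start their p were 2.55e-37, 8.12e-20, 3.13e-23, 0.000818, 2.17e-19, 1.89e-21 and 0.0637, so 5 of 7 were under 1e-10 in a gene of less than 3 kb. Neither gene had an N2A peak. The X chromosome held 11.2% of cortex lncRNA peaks and 3.31% of all cortex peaks.

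The X inactivation centre contributed 55 cortex peaks from its 3 genes in the list used here, Xist, Jpx and Ftx. Xist, the RNA that coats the inactive X chromosome of female cells, had 15, all on its own minus strand and all inside the span of its antisense partner Tsix as well. The 4 strongest Xist peaks had p of 8.62e-17 at 1.53 kb, 3.01e-15 at 0.443 kb, 3.4e-14 at 0.664 kb and 1.26e-14 at 7.93 kb from the start. Of those 4, 3 therefore lay in the first 2 kb of a gene of 22.9 kb. In N2A Xist had 3 peaks, with p of 2.39e-08 at 1.52 kb, 0.0348 at 1.31 kb and 0.073 at 17.2 kb. The first overlapped the strongest cortex peak. Ftx, an activator of Xist in mouse, had 34 cortex peaks and no N2A peak, with a lowest p of 7.44e-31 at 32.7 kb from its start. Jpx, another activator of Xist, had 6 cortex peaks with a lowest p of 0.000829.

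**Figure D3:**
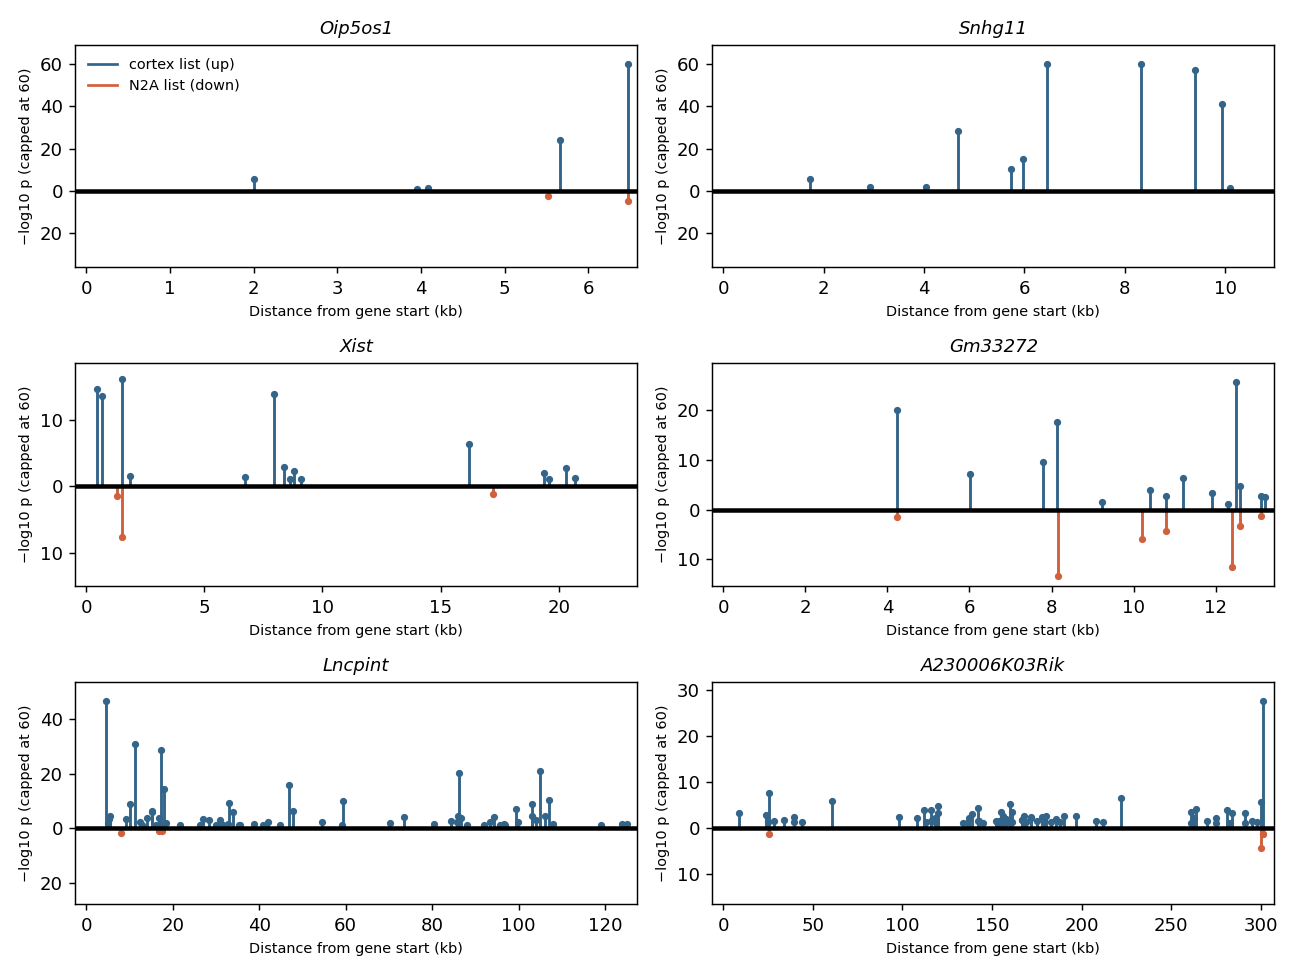
Position of lncRNA peaks along 6 genes, by distance from the gene start (x axis, kb), with the −log10 deposited p as height (y axis, drawn at most 60), for the cortex list (upwards) and the N2A list (downwards). The strongest peak of Oip5os1 lies at the gene's end in both lists, those of Xist at 1.53 and 1.52 kb from its start, and Lncpint and A230006K03Rik are covered along most of their length in cortex.

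MicroRNA host genes were looked up by name. Of 12 host lncRNAs, 9 had cortex peaks, 113 in all, and 0 had N2A peaks, beside 4.02% and 0.422% of all lncRNA genes with room outside coding spans. The 12 were hand-picked with earlier results known, so nothing is read from that contrast. Without a list, 23 of the 400 lncRNA genes with cortex peaks and 3 of the 42 with N2A peaks held a microRNA gene. The share of all lncRNA genes that hold one is not given here, so nothing is read from these counts either. The 9 listed hosts with cortex peaks were A330023F24Rik, C130071C03Rik, Dleu2, Ftx, Mir100hg, Mir124a-1hg, Mir22hg, Mir9-3hg and Mir99ahg. Ftx supplied 34 of the 113, Mir100hg 25, Dleu2 (host of miR-15a and miR-16-1) 14, Mir99ahg 12 and A330023F24Rik 11. The 3 without a peak were Mir17hg, Mir155hg and Mirt1, the first 2 best known from dividing and immune cells. With 60 N2A lncRNA peaks in all, an N2A count of 0 over 12 genes says little.

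Peaks close to the microRNA itself, whose sequences are shown above, were of unequal strength. Near Mir125b-1, in Mir100hg, a peak at chr9:41581862-41581912 with a p of 1.17e-11 lay 14 nt from the hairpin. Near Mir9-2, which makes the neural miR-9, a peak of C130071C03Rik at chr13:83739153-83739204 with a p of 6.44e-21 lay 268 nt from it and was the strongest of that gene's 6. The peaks closest to Mir29b-2, Mir374b and Mir22 lay 157, 178 and 462 nt away, with p of 0.00793, 0.0136 and 0.0678. The strongest peak of the miR-29 host A330023F24Rik, with a p of 6.27e-85, instead lay 17 kb from the gene start and upstream of both hairpins. Mir124a-1hg had 8 peaks with a lowest p of 2.98e-24. Of 43 microRNA genes inside lncRNA genes with cortex peaks, 2 were touched by a peak, Mir29c and Mir6236, and Mir6236 was touched in N2A too. In both lists the peak at Mir6236 lay on the strand of that microRNA, opposite to the annotated strand of Gm39429, the lncRNA gene around it.

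SnoRNA host genes were looked up in the same way. Of 20, 19 of them with room outside coding spans, 7 had cortex peaks (Gas5, Snhg1, Snhg11, Snhg20, Snhg3, Snhg8 and Zfas1) and 8 had N2A peaks (Gas5, Snhg1, Snhg12, Snhg20, Snhg4, Snhg5, Snhg8 and Zfas1). The shares over all lncRNA genes with such room were 4.02% and 0.422%. The hosts held 19 cortex peaks, 11 of which were in Snhg11, and 8 N2A peaks. Gas5, a growth-arrest transcript whose introns carry snoRNAs, had 1 peak in each list, with p of 0.00184 in cortex and 3.77e-09 in N2A, and these overlapped. Snhg8, Snhg20 and Snhg1 also had 1 overlapping peak in each list. Cortex p were 0.000131, 0.000403 and 0.0152, and N2A p 0.00328, 0.0968 and 0.0958. In Zfas1 the strongest cortex peak had a p of 3.22e-15 and touched a snoRNA gene, while the N2A peak had a p of 0.0535 and overlapped no cortex peak. Snhg5 had an N2A peak alone, with a p of 4.07e-05.

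A peak touched 7 of the 33 snoRNA genes inside lncRNA genes with cortex peaks, and 4 of 31 inside those with N2A peaks. In 2410006H16Rik, 3 separate cortex peaks touched Snord49b, Snord49a and Snord65, with p of 1.54e-06, 0.0376 and 0.0103. Peaks of both lists touched the same snoRNA gene in Gas5 and in Snhg1. Whether such a peak comes from the host transcript or from the snoRNA was not tested.

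Among 21 neural and stem cell lncRNAs in the reference, 20 of them with room outside coding spans, 12 had cortex peaks (132 in all) and 3 had N2A peaks (7 in all), beside 4.02% and 0.422% of all such lncRNA genes. Beside Lncpint, Oip5os1 and Sox2ot, the most covered was Chaserr, which lies next to Chd2 and restrains it in mouse, with 13 peaks and a lowest p of 2.06e-13. Tug1, a widely made lncRNA first described in the retina, had 11, with a lowest p of 1.14e-20 at 0.544 kb from its start. Dlx6os1 (Evf2), which marks forebrain interneuron precursors, had 7, with a lowest p of 2.94e-07. Norad, which sequesters Pumilio proteins, had 6, all under 0.05, with a lowest p of 9.86e-16. All 6 also lay inside the span of another lncRNA gene, Gm14170, so they cannot be assigned to Norad alone. Firre, Rmst and Pvt1 had 5 each, Tunar and Pantr1 had 3 each. The lowest p was 1.1e-19 for Firre, 0.00266 for Rmst, 0.00541 for Pvt1, 1.85e-09 for Tunar and 0.000354 for Pantr1. The hand-written list of imprinted lncRNAs held 5 in the reference (H19, Airn, Kcnq1ot1, Peg13 and Ipw), 3 of them with room outside coding spans. Of these, Airn alone had cortex peaks, 4 in number (lowest p 0.000421), and no N2A peak lay in any. That list does not cover every imprinted region, and A230006K03Rik, A230057D06Rik and B230209E15Rik were not on it.

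The N2A list was led by Gm33272, a lncRNA of 13.2 kb placed on the Y chromosome by the reference, with 7 peaks, all under 0.05. Its lowest p was 3.38e-14, and 5 of the 7 overlapped cortex peaks. The gene had 14 cortex peaks, with a lowest p of 2.24e-26. These 14 were all of the cortex lncRNA peaks on Y, which held 46 cortex peaks in all, among them 11 in Uty, 7 in Eif2s3y, 5 in Ddx3y and 3 in Kdm5d. N2A had 15 peaks on Y, 7 in Gm33272 and 8 in no gene span. The cortex list thus held peaks in both Xist and the Y-linked genes Uty, Eif2s3y, Ddx3y and Kdm5d. N2A peaks lay in Xist and Gm33272 but in none of those Y-linked genes. Whether the peaks of Gm33272 could also come from matching sequence on another chromosome was not tested.

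Strongest in N2A was the single peak of Gm36876, with a p of 1.73e-63, at chr11:109011800-109011850. It overlapped that gene's cortex peak and, like it, lay on the minus strand of a gene annotated on the plus strand. 5031425E22Rik had 3 N2A peaks, with p of 3.65e-26, 0.0126 and 0.0389. The last overlapped the strongest of that gene's 17 cortex peaks, whereas the strongest N2A peak, 9.85 kb from the gene start, overlapped none. Gm15564 had a p of 9.9e-15, also on the strand opposite to its annotation, and Gm41014 a p of 2.92e-08. A230006K03Rik had 4 N2A peaks (lowest p 3.8e-05), 3 of which overlapped cortex peaks. Tug1 had 2, with p of 5.83e-05 and 0.035, the first overlapping the strongest Tug1 peak of cortex. Lncpint had 3 (lowest p 0.0118) and A630089N07Rik 2 (lowest p 0.0318).

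Cortex peaks were absent from 17 of the 42 lncRNA genes with N2A peaks. They included AI506816, the gene with 2 N2A peaks and none in cortex (p 0.000975 and 0.0856), and Gm46174 (p 0.000182). Hdnr and Hand2os1, which flank the sympathoadrenal transcription factor gene Hand2, had 1 N2A peak each, with p of 0.00046 and 0.00708, and were named after their values had been seen. Hand2 itself had N2A peaks and no cortex peak. Of the 42 genes with N2A peaks, 59.5% had cortex peaks too (44.5 to 73.0), against 91.3% of 2952 coding genes with N2A peaks (90.2 to 92.2). Of the 400 with cortex peaks, 6.25% had N2A peaks (4.27 to 9.06), against 31.9% of coding genes. Neither pair of intervals overlaps. LncRNA genes hold fewer peaks each than coding genes, and the part of that in the difference was not tested.

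Single sites were compared next. Of 60 N2A lncRNA peaks, 27 overlapped a cortex peak on the same strand by 1 nt or more (45.0%, 33.1 to 57.5), beside a background of 41.8% over all N2A peaks. Conversely 27 of 1398 cortex lncRNA peaks overlapped an N2A peak (1.93%, 1.33 to 2.80), beside 3.13% of all cortex peaks. The N2A share is close to the background and is no result about lncRNA genes. The overlapping peaks lay in 19 genes: Gas5, Tug1, Gm36876, Snhg20, Gm41014, A630089N07Rik, Gm10125, Gm30821, Snhg1, Oip5os1, Snhg8, 5031425E22Rik, Gm35688, Lncpint, A230006K03Rik, AU020206, Gm39429, Xist and Gm33272. In Gm35688 both lists gave the same coordinates, chr5:28963895-28963945, with p of 1.9e-05 in cortex and 0.00245 in N2A. Of the 2 Lncpint sites, 1 had a p of 1.76e-29 in cortex and 0.0922 in N2A. The lists differ in size, so such pairs of p show no change between the groups.

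Position along the gene was read for peaks on the annotated strand of a single gene, 994 in cortex and 48 in N2A. In cortex the lncRNA peaks were spread over the whole gene, with 21.8%, 17.3%, 21.3%, 17% and 22.5% in successive stretches of 20% of its length. Cortex peaks in coding genes had 28.0% in the last 20% of the gene (27.7 to 28.4), above the interval for lncRNA genes (20.1 to 25.2). In N2A 80.9% of coding peaks lay in the last 20% (79.8 to 81.9), against 39.6% of lncRNA peaks (27.0 to 53.7). N2A lncRNA peaks instead had 29.2% in the first 20% (18.2 to 43.2), against 4.57% of coding peaks. The 48 peaks include 7 of Gm33272 and 4 of A230006K03Rik.

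Distances depend on the length of the gene, and the median span behind these peaks was 62.8 kb for lncRNA and 149 kb for coding peaks in cortex, and 13.2 and 41.7 kb in N2A. In genes of 20 kb or more, 10.7% of 742 cortex lncRNA peaks lay within 5 kb of the gene end (8.63 to 13.1), against 16.03% of coding peaks. Within 5 kb of the start the shares were 8.90% (7.05 to 11.2) and 3.71%, while by relative position the first 20% of the gene held 21.8% and 21.0%. In N2A 4 of 18 lncRNA peaks, from 8 genes, lay within 5 kb of the end (22.2%, 9.00 to 45.2), against 76.4% of 4088 coding peaks. The same number, 4 of 18, lay within 5 kb of the start, against 2.20% of coding peaks. Exons were not in the reference, so exonic and intronic peaks were not separated.

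**Figure D4:**
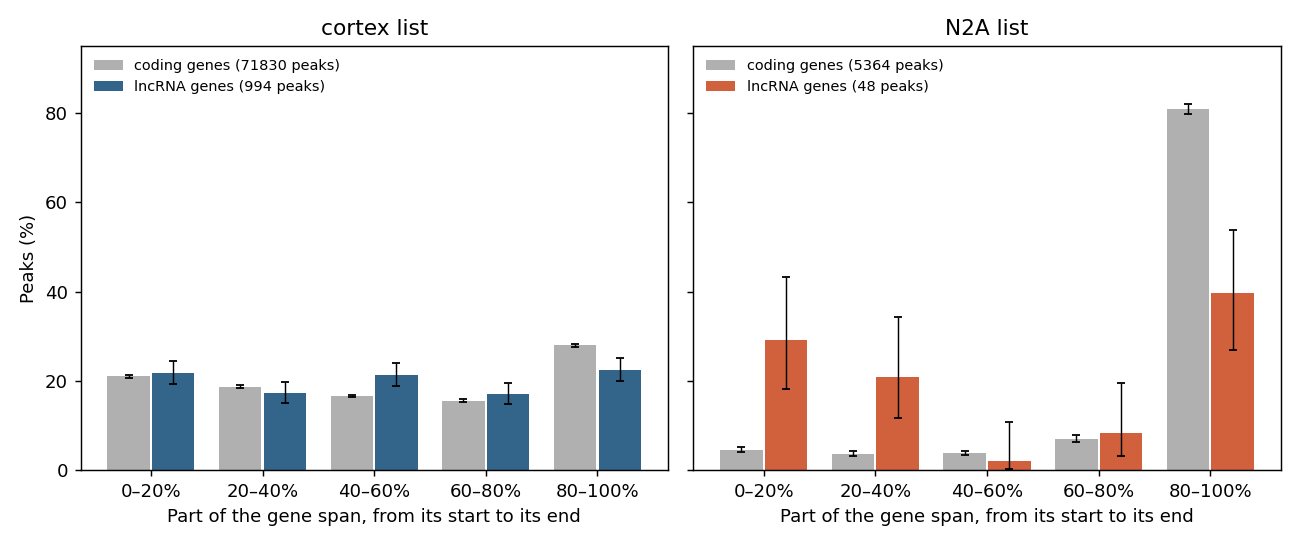
Share of peaks (y axis, %) in each stretch of 20% of the gene span from start to end (x axis), for coding genes (grey) and lncRNA genes (coloured), in the cortex list (left) and the N2A list (right). Bars start at 0 and error bars are Wilson 95% intervals. In N2A the last 20% of the span holds 80.9% of coding peaks and 39.6% of lncRNA peaks.

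Where RefSeq gives the strand of the lncRNA gene, 1013 cortex lncRNA peaks lay on it and 95 on the other (91.4% on it, 89.6 to 92.9), while 99.4% of peaks in single coding genes did (99.3 to 99.4). In N2A the numbers were 48 and 4 (92.3%, 81.8 to 97.0), against 99.6%. The strand of the remaining 290 and 8 peaks could not be read. Of 191 genes with 2 or more cortex peaks, 185 had all of them on 1 strand, as did 9 of 9 in N2A.

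The 95 opposite-strand cortex peaks lay in 59 genes, and many followed a coding gene. Of the 95, 34 lay within 5 kb past the end of a coding gene on their own strand (35.8%, 26.9 to 45.8), against 15 of the 1013 on the lncRNA gene's strand (1.48%, 0.899 to 2.43). Counting only the strongest such peak of each lncRNA gene, the shares were 28.8% of 59 (18.8 to 41.4) and 3.03% of 231 (1.48 to 6.12). The 34 peaks followed 18 coding genes, among them Nipa1, Ttyh1, Rtn4rl1, Lurap1, Pcdh10 and Arhgap20. The clearest case was A230056P14Rik, a plus-strand gene whose 7 cortex peaks all lay on the minus strand, 1.10 to 4.91 kb past the end of the magnesium transporter gene Nipa1. Their p were 2.68e-44, 1.98e-09, 6.76e-09, 6.32e-24, 1.6e-20, 1.74e-15 and 2.89e-05 with growing distance from Nipa1. D030047H15Rik had peaks at 0.228 and 0.448 kb past Ttyh1, with p of 1.5e-05 and 8.95e-16. Whether these peaks come from the lncRNA gene, from an unannotated RNA or from the coding transcript cannot be told apart in these lists. Over all strands, 65 of 1398 cortex lncRNA peaks (4.65%) lay in such a place, and 1 of 60 in N2A.

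**Figure D5:**
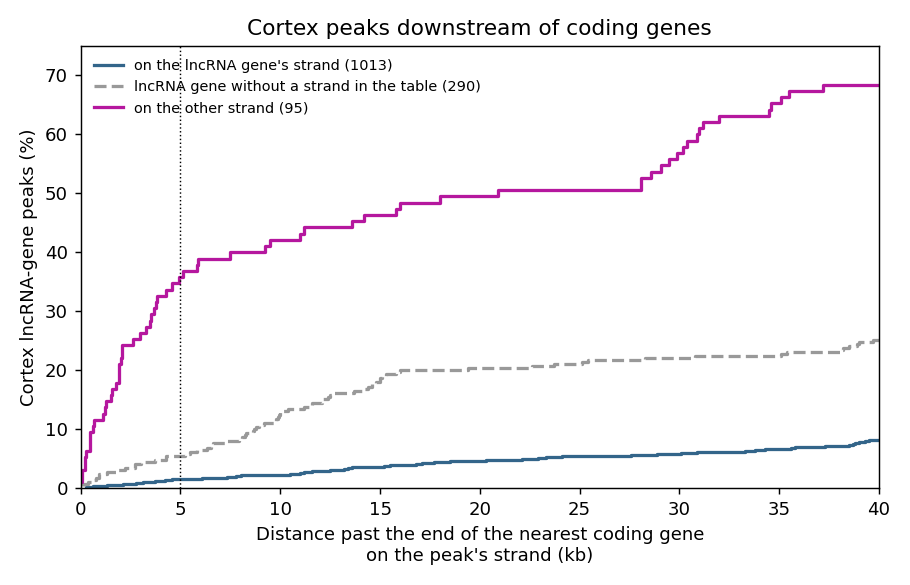
Share of cortex lncRNA peaks (y axis, %) at up to a given distance past the end of the nearest coding gene on the peak's own strand (x axis, kb), for peaks on the lncRNA gene's strand (blue), on the other strand (magenta) and in lncRNA genes without a strand in the table (grey). At the dotted line of 5 kb the shares are 1.48%, 35.8% and 5.52%.

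Without regard to strand, 249 cortex lncRNA peaks lay within 5 kb of a coding gene span (17.8%, 15.9 to 19.9) and 15 N2A peaks did (25.0%, 15.8 to 37.2). The median distance to a coding span was 40.8 kb in cortex and 28.9 kb in N2A, and the largest in cortex was 1492 kb. Within 50 kb of a coding span lay 53% of the cortex and 60% of the N2A lncRNA peaks, and within 100 kb 66.0% and 81.7%.

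The labelled sources were checked by the presence of peaks in marker genes, which is not a measure of their expression. Over all 21900 coding genes, 38.6% had a cortex peak and 13.5% an N2A peak in that gene alone. Cortex peaks lay in 6 of 7 markers of excitatory neurons, 4 of 5 of interneurons, 4 of 5 of astrocytes, 4 of 4 of oligodendrocytes and 0 of 4 of microglia. N2A had a peak in 0 of these 25 genes. Among genes of neuroblastoma and sympathoadrenal cells, Gata2, Hand2, Lin28b, Mycn and Phox2a had N2A peaks, and Gata3, Lin28b and Mycn had cortex peaks.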

How the data were processed

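The deposited files are 2 peak lists with chromosome, start, end, strand and a p-value per peak, made by the authors' peak calling. Novoalign is named without a version, per the submitters' processing notes, beside the human build hg19. Chromosome names are those of mouse and coordinates were read as GRCm38. Whether they count from 0 or 1 is not stated, and they are printed as deposited. The sources used here name no peak caller or adjustment of p, nor how the 3 cortex samples became 1 list. The cortex list's name carries the words for 2 months, which the labels do not explain. No read numbers are given, so the depth is unknown.

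Peaks were overlapped with gene spans of the RefSeq table of GRCm38.p6 in Python 3.11.15 with pandas 2.3.3 and numpy 2.4.6, by code tested on simulated intervals. The strand of a lncRNA gene came from the RefSeq promoter table, which gave it for 9527 of 12724, the genes left out by name not counted. Coding genes without an entry took the strand of at least 90% of 3 or more peaks (1087 genes). Distances in kb from the start or end of a peak's own gene are from the centre of the peak. Those to other coding genes and to microRNA or snoRNA genes are from its nearer edge. Shares carry Wilson 95% intervals. No test was run, as each group has 1 list.

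Named genes were the 12 with the most cortex peaks (and those tied with the last), the 10 with the lowest cortex p, those with 2 or more N2A peaks, the 12 with the lowest N2A p, those with overlapping peaks of both lists, and 5 hand-written lists. C030023E24Rik, 2410006H16Rik, A230056P14Rik and D030047H15Rik fall outside this rule and, like Hdnr and Hand2os1, were named after their values had been seen. Symbols the reference lacks as lncRNA were not searched further. The members, lists and rules were chosen with earlier results of these data known. The planned motif content over all peaks needs a genome, which was not used here, so it was not run. An autosome holding 18 cortex and 3 N2A lncRNA peaks was left out of the search for peaks inside promoter windows. Some results on individual genes are not reported here.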

Additional observations from a re-analysis of the deposited data

How the results depend on the processing

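Of 60 alternative values computed, 53 stayed within 1.5 times the count or inside the 95% interval of the share reported, and 0 changed direction. The share of cortex peaks in lncRNA genes left its interval in 4 cases. It was 1.30% in the stronger 50% of the list, 1.29% among peaks with a p under 0.01, 1.18% with coding spans widened by 5 kb and 1.70% with the 7 genes put back. With coding spans widened, the N2A share fell to 0.614%. The share of cortex lncRNA peaks with a p under 0.05 was 77.2% with the 7 genes put back, which ends its difference from the whole list, and 26.7% of them lay within a window of 10 kb of a coding span in place of 5 kb. The last follows from the wider window. The others keep other peaks by construction, and no further cause was tested. The difference N2A minus cortex ran from -0.666 to -0.562 percentage points over its 4 alternatives. Over its 10 alternatives, the share of N2A lncRNA peaks overlapping a cortex peak ran from 38.2% (the 7 genes put back) to 55.0% (a cortex peak within 100 nt). For opposite-strand cortex peaks past a coding gene end, 2 alternatives were chosen after seeing the data. The share was 27.4% with coding strands from RefSeq alone and 28.8% with the strongest peak of each lncRNA gene. No paired analysis was possible because each group has a single peak list and no value of a single sample. The N2A values rest on 60 peaks, the depth of the libraries is unknown, and lists called at unequal depth can differ in size for that reason alone.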
